A study of Mus musculus with 6 samples.

Results

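The imprinting control regions of 10 loci that carry methylation on the maternal chromosome were followed in mouse colon epithelium: Grb10, Peg3, Mest, Peg10, Snrpn, Plagl1, Igf2r, Kcnq1ot1, Impact and Nnat. Members were all regions of the deposited tables that overlapped a fixed window of build mm9 at these loci, whatever their level. This gave 51 of 209687 regions, 2 in the Grb10 window, 10 at Peg3, 4 at Mest, 6 at Peg10, 5 at Snrpn, 4 at Plagl1, 5 at Igf2r, 3 at Kcnq1ot1, 5 at Impact and 7 at Nnat. A value in each of the 6 samples was present for 46 of them, and the remaining 5 (2 at Peg3 and 1 each at Plagl1, Impact and Nnat) were left out of every comparison. The samples were colon epithelium of C57BL/6 mice aged 18 weeks, scraped after the proximal segment and right-sided tumors had been cut away; its purity cannot be read from methylation tables alone. There were 3 groups of 2 samples: controls, mice in which the carcinogen azoxymethane and the colitis agent dextran sulfate sodium had been used together (AOM/DSS), and mice with AOM/DSS plus curcumin, the yellow polyphenol of turmeric. No dose, schedule or sex is given in the sources used here. Nothing says that the replicates were separate or single animals, so a p-value here speaks of the spread between the deposited samples, which may be technical.

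Genomic imprinting makes a gene active from the chromosome of only 1 parent. At a maternally methylated control region the mark is set in the oocyte, survives the demethylation of the early embryo and is then kept in body tissues, while the paternal copy stays unmethylated. Bisulfite sequencing, which reads methylated cytosines as C and others as T, then returns a mixture of fully methylated and unmethylated reads, with an ideal level of 50%. Many of these regions overlap the promoter of a transcript made from the paternal copy: Peg3 and Plagl1 (zinc finger proteins), Mest (a hydrolase-like protein), Peg10 (derived from a retrotransposon), Snrpn (a splicing factor), Nnat (neuronatin), Impact (a regulator of translation), and the noncoding RNAs Kcnq1ot1 and Airn, which silence neighbouring genes. Airn starts within Igf2r, the receptor that removes the growth factor Igf2, and Grb10 encodes an adaptor that restrains growth factor signalling.

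Since methylation is kept at these promoters by a complex that recognises a short methylated motif, the promoters of 6 of the transcripts are shown, each from 250 bases before to 50 bases after the RefSeq start on build GRCm38.p6. That is another build than the mm9 of the measurements, so the promoters were not placed among the measured regions. Of 12 symbols looked for, 11 were in the promoter table. Capitals mark TGCCGC on either strand (GCGGCA on the other), the core of the motif bound by ZFP57, which protects imprints; the motif was found in 11.6% of all 32851 promoters of that length. The motif itself contains a CpG, and no share was worked out for promoters as rich in CpGs as those shown. A match is a description of these letters, not a bound site.
Mest (chr6:30737800-30738099, plus strand): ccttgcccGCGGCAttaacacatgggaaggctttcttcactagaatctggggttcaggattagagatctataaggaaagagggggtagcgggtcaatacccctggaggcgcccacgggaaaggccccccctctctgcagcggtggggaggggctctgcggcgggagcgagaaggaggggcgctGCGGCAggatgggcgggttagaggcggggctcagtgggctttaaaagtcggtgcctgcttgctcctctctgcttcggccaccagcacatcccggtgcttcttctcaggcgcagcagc
Plagl1 (chr10:13090582-13090881, plus strand): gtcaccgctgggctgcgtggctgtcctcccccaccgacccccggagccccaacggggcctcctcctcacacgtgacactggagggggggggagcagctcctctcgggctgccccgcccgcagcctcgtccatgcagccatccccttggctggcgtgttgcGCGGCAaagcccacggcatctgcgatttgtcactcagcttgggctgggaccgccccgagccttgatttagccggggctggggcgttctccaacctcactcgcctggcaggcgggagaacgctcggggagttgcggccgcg
Nnat (chr2:157559828-157560127, plus strand): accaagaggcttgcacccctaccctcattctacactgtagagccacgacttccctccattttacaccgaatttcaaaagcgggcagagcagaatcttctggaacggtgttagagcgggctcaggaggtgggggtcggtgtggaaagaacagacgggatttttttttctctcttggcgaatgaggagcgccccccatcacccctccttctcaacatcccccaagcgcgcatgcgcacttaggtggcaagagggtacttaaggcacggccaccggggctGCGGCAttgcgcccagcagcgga
Snrpn (chr7:60005150-60005449, minus strand): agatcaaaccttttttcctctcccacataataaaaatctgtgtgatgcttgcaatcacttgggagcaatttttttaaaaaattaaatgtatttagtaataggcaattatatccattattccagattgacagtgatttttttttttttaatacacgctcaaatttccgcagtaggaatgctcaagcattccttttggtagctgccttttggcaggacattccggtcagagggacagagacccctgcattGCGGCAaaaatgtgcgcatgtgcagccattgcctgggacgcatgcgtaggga
Peg3 (chr7:6730370-6730669, minus strand): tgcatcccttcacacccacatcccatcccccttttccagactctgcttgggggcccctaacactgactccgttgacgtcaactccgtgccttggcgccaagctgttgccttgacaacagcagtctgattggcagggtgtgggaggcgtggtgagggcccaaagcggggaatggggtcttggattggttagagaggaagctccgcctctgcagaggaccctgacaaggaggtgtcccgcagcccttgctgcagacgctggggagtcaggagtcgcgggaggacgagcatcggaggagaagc
Kcnq1ot1 (chr7:143296498-143296797, minus strand): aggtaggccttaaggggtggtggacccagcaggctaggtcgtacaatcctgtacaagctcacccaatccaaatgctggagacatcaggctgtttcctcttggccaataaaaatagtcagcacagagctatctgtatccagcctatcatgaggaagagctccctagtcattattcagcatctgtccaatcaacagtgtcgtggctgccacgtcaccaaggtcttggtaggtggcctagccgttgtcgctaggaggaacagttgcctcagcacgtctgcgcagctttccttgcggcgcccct
The Mest promoter held 2 matches and those of Plagl1, Nnat and Snrpn 1 each, and the windows shown for Peg3 and Kcnq1ot1 held none. The 6 were chosen after the matches were seen, and of several starts of a gene one with the most CpGs is shown: 3 other Snrpn starts and an upstream Mest start held no match. Of the promoters not shown, those of Igf2r, Airn and Usp29 held no match, and 1 of the 2 Grb10 starts held 1. Plagl1 had the most CpGs of the 6, with 26 in 300 bases. Mest and Nnat had 17 each, Peg3 had 13, Kcnq1ot1 had 9 and Snrpn had 7, against a median of 7 over all promoters of the table.

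The deposited tables count, for each region, the methylation calls over its CpGs and how many were methylated. A level is the methylated share in percent, and the level of a window pools the calls of its tested regions. Total calls ran from 24682973 to 30727568 per sample, of which 8105 to 10362 fell in the tested member regions. Coverage of the windows was thin: pooled calls per CpG ran from 3.21 (Grb10, control replicate 1) to 17.1 (Mest, AOM/DSS replicate 0). Wilson 95% intervals on the pooled calls reached 2.22 to 6.19 points to either side, but they cover counting error only and treat calls of the same read as independent. Each level averages over both chromosomes and over all cells of a sample, so a change in a few cells and a small change in every cell cannot be told apart.

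Most of the control regions showed the intermediate level that their name implies. The mean of the 10 windows was 46.6% ± 0.403 (SD, n = 2) in control, 47.7% ± 0.993 in AOM/DSS and 48.9% ± 0.490 with curcumin. Of the 46 tested regions, 31 averaged 30 to 70% over the 6 samples, 9 lay above and 6 below, and none averaged under 10%. In all 6 samples at once 14 of them (30.4%) were at 30 to 70%, against 10.4% of all tested regions. Among the 34 members with at least 12 CpGs, 23 (67.6%) averaged 30 to 70%, whereas of 48983 other tested regions as rich in CpGs 7.07% did and 73.3% were under 10%. Members and those other regions were alike in CpG number, with medians of 19.5 and 19 CpGs. Which parental copy carried the methylation is not recorded in the tables.

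**Figure D1:**
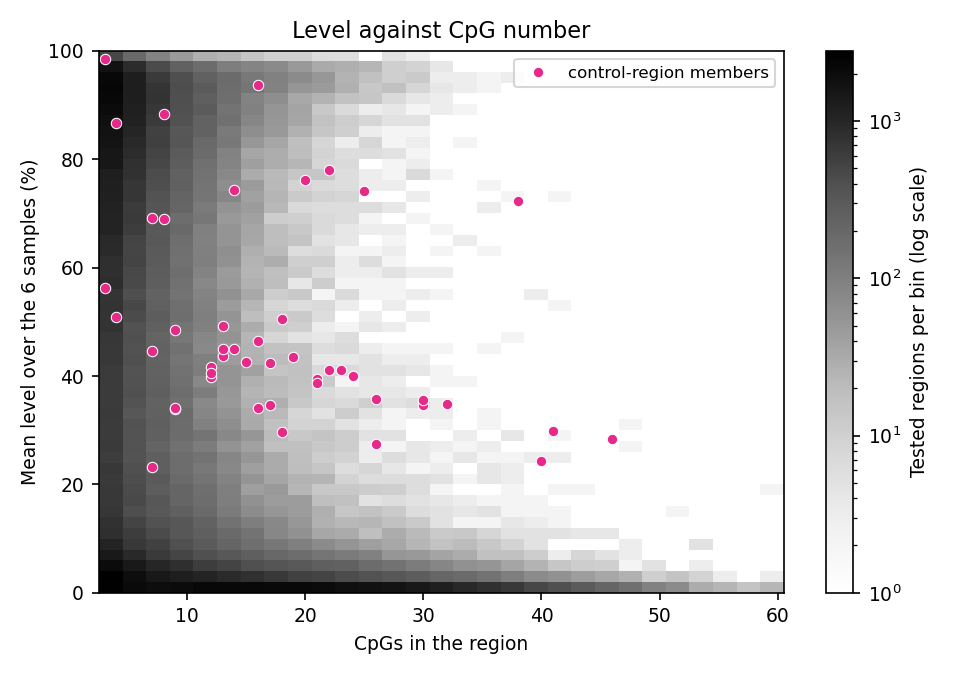
Each point is a tested member region, placed by its number of CpGs (x axis) and its mean methylation level over the 6 samples in percent (y axis); the grey shading counts all 179922 tested regions per bin on a log scale, with CpG numbers above 60 drawn in the last bin. The members with at least 12 CpGs lie well above the dark band of unmethylated CpG-rich regions at the bottom.

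Of the windows at the silencing RNAs, Kcnq1ot1 was the highest of all and Igf2r stood in the middle. The Kcnq1ot1 window had the highest mean of the 10, 75.6% over the 6 samples, and none of its 3 regions averaged 70% or less. It stood at 80.6% and 80.9% in the control replicates, 69.5% and 65.9% in AOM/DSS, and 75.2% and 81.4% with curcumin. Both AOM/DSS samples were thus below the other 4. Along the window, levels were even: the lowest region, chr7:150481315-150481703 with 38 CpGs, averaged 72.3%, and the highest, chr7:150482127-150482504 with 22 CpGs, averaged 78.0%. No regions were measured within 10000 bases on either side, so the surroundings of this window are unknown here.

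At Igf2r, whose window covers the start of the antisense RNA Airn, levels were 36.9% and 48.1% in control, 47.2% and 43.0% in AOM/DSS, and 41.1% and 43.4% with curcumin. The control replicates were the extremes, 11.2 points apart, and all groups overlapped. The first 4 regions averaged 29.7 to 43.5%, the lowest being chr17:12934723-12934896 with 18 CpGs. The fifth, chr17:12935725-12935931 with 7 CpGs, averaged 69.2%, the highest of the window.

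Several windows at promoters of protein-coding paternal transcripts were close to each other in level. Peg3 had 37.4% and 44.6% in control, 41.6% and 46.7% in AOM/DSS, and 43.0% and 44.5% with curcumin. All 8 tested regions averaged between 35.6% (chr7:6682774-6683178, 30 CpGs) and 56.3% (chr7:6684771-6684825, 3 CpGs), the highest being the last. Impact, on chromosome 18, had 42.8% and 39.3% in control, 44.6% and 45.8% in AOM/DSS, and 36.3% and 42.9% with curcumin. Its outermost region, chr18:13130071-13130086 with 3 CpGs, was methylated at 95 to 100% in every sample, while the next 3 averaged 34.8 to 46.5%, the lowest being chr18:13131640-13132064.

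Mest had 45.7% and 43.0% in control, 34.4% and 39.3% in AOM/DSS, and 40.2% and 39.3% with curcumin, so that both controls were above the other 4 samples. Its 4 regions averaged from 34.7% (chr6:30687888-30688116) to 41.1% (chr6:30686965-30687460). Plagl1 had 43.3% and 43.1% in control, 45.2% and 46.7% in AOM/DSS, and 55.4% and 47.2% with curcumin, with both controls lowest. Here the pooled value mixed a higher outer region with the CpG-rich part. The outer region chr10:12809661-12810074 averaged 74.3% with an SD of only 1.37 points over the 6 samples. The region chr10:12810540-12810933 had 46 CpGs, the most of any member. It averaged 28.4%, with 41.9% and 17.7% in the curcumin replicates.

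Snrpn, the splicing factor whose control region governs a cluster of brain-expressed genes, had 45.2% and 52.0% in control, 51.6% and 58.1% in AOM/DSS, and 55.3% and 51.6% with curcumin. Across the window the level stepped down from 88.3% at chr7:67148026-67148181 to 34.02% at chr7:67149928-67150181. At Nnat, higher regions lay on both sides of 3 lower ones. The first region, chr2:157384922-157385354, averaged 93.6%, the 3 lower ones averaged 34.7%, 48.5% and 23.3% in the order of their positions, the lowest being chr2:157387128-157387184, and chr2:157387634-157387832 was back at 69.0%. The pooled Nnat level, 70.3% and 62.2% in control, 69.6% and 67.6% in AOM/DSS, and 74.2% and 68.7% with curcumin, therefore contains the highly methylated regions as well as the lower ones between them.

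The lowest windows were Peg10 and Grb10. Peg10 had 37.7% and 32.4% in control, 31.3% and 36.5% in AOM/DSS, and 32.7% and 31.3% with curcumin, with overlap between all groups. Its regions averaged from 24.3% (chr6:4697398-4697849, 40 CpGs) to 50.6% (chr6:4698810-4699244, 18 CpGs). Grb10 had 28.5% and 17.2% in control, 35.1% and 34.7% in AOM/DSS, and 39.3% and 35.4% with curcumin, and both controls were below the other 4 samples. It rested on 2 regions, chr11:11925689-11925946 averaging 38.6% and chr11:11926084-11926286 averaging 27.5%, and on 151 to 379 calls per sample, the fewest of the 10 windows.

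**Figure D2:**
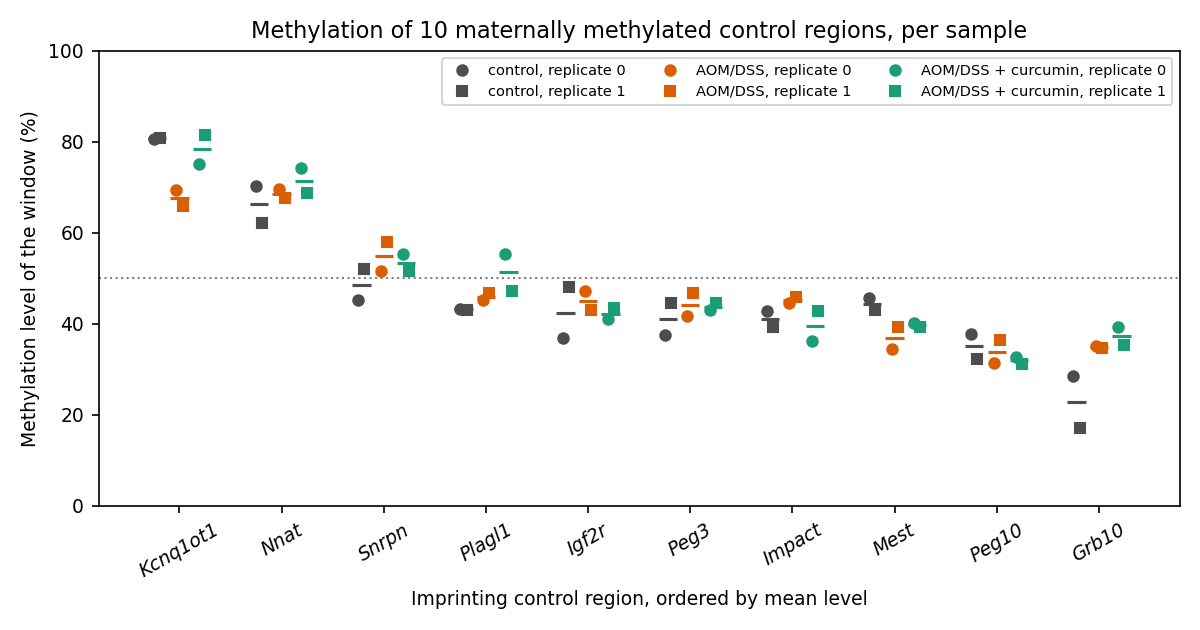
Methylation level of each window in percent (y axis) for the 6 samples, with the 10 control regions ordered by mean level (x axis); circles are replicate 0, squares replicate 1, short lines group means and the dotted line 50%. Kcnq1ot1 and Nnat lie above 50% in all 6 samples, and 6 windows lie below it in all 6.

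In the order of mean level, Kcnq1ot1 (75.6%) and Nnat (68.8%) were followed by Snrpn (52.3%), Plagl1 (46.8%), Igf2r (43.3%), Peg3 (43.0%), Impact (41.9%), Mest (40.3%), Peg10 (33.6%) and Grb10 (31.7%). Only between Nnat and Snrpn did the ranges over the 6 samples stay apart, with a difference of 16.5 points in 6 of 6 samples. An exact two-sided sign-flip permutation test over the samples gave p = 0.03125 there, the smallest it can give, and 0.141 after adjustment over the 9 neighbouring pairs. Mest was above Peg10 in 6 of 6 samples by 6.67 points, with the same exact p and adjusted p. For the other 7 neighbouring pairs the exact p ran from 0.0625 to 0.906. The pairs were formed from the order of these same means, and no adjusted p was under 0.05. No step of the order is thus settled by this test beyond the spread over samples.

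**Figure D3:**
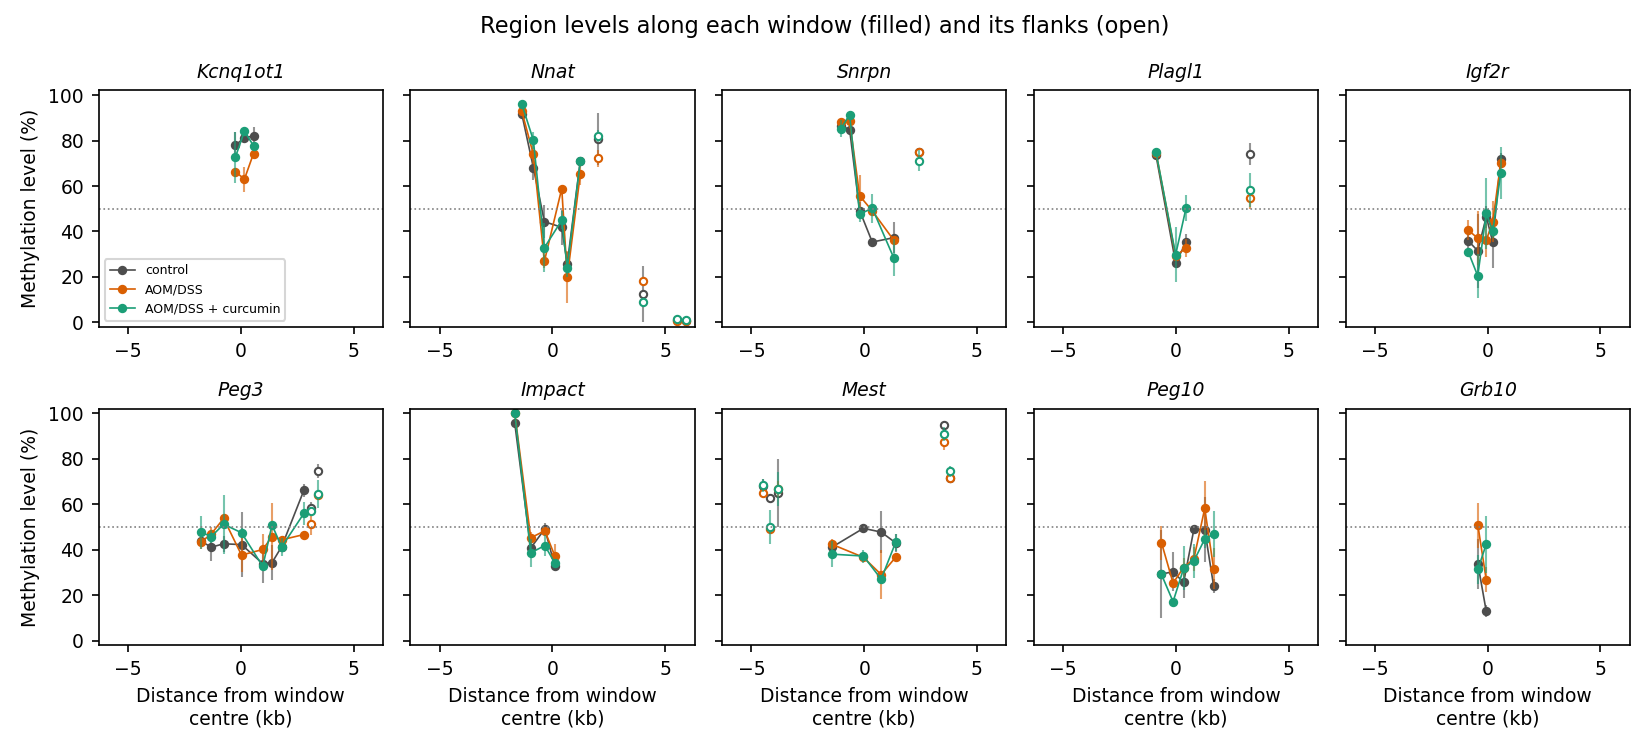
Methylation level in percent (y axis) of each tested region by its distance from the window's centre in kb (x axis), 1 panel per window; points are group means, vertical lines join the 2 replicates, filled points are members and open points flanking regions within 6 kb. Nnat has higher regions on both sides of lower ones, Snrpn, Impact and Plagl1 step down from highly methylated regions at the left, and Mest is even across the window.

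Measured flanks within 10000 bases were few. On the right of Mest, the region 223 bases beyond the window averaged 91.2%, and at Nnat the one 439 bases beyond it averaged 78.3%. The single flanking region of Snrpn averaged 73.8%, that of Plagl1 62.4%, and the region 34 bases beyond the Peg3 window 55.7%. Each of these 5 neighbours was more methylated than the window beside it. To the left of Mest 3 regions pooled to 60.2 to 66.5% per sample, and 4 to the left of Peg10 to 61.6 to 72.3%, while the single region to its right averaged 99.7%. Lower pools were found at Nnat, where the 8 regions to the right, the near one included, gave 13.99 to 18.3%, and at Grb10, where 4 gave 14.5 to 19.3% although the nearest averaged 46.3%. The nearest at Igf2r, 6727 bases out, averaged 5.73%. Impact, like Kcnq1ot1, had no measured flank.

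Whether carcinogen and colitis disturbed these marks was read from AOM/DSS against control. None of the 46 tested members passed edgeR's quasi-likelihood test at an adjusted p under 0.05 with means at least 10 points apart; over all tested regions 0.00389% did. The smallest adjusted p among them was 0.592. At an unadjusted p under 0.05, 9 members stood out, 7 with the lower level in AOM/DSS and 2 with the higher, which is 19.6% of the members against 6.34% of all tested regions. All 9 also had means at least 10 points apart, which together with that p held for 2.82% of all tested regions. No share at this p was worked out for regions of like level, here or in the later comparisons. Replicates lay further apart at members than over all tested regions averaging 10 to 90%, and neighbouring members share reads. What part of these shares comes from that spread was not tested. The groups did not overlap at 6 members that were higher and 8 that were lower, against 14.8% and 20.8% of all tested regions. The median difference of the members was 2.34 points, and that of all tested regions -0.264 points; the median size of the difference was 6.06 and 2.33 points, and 5.28 points in the 36699 other regions averaging 30 to 70%.

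The window with the clearest difference was Kcnq1ot1, where control averaged 80.7% ± 0.244 and AOM/DSS 67.7% ± 2.52 (SD, n = 2 each). The difference of -13.0 points was larger than the widest gap between replicates of any group, 6.22 points. With each window summed into a single feature of the genome-wide fit, edgeR gave an unadjusted p of 0.00227 and an adjusted p of 0.620, so it did not pass. Without each of the 4 compared samples in turn the difference lay between -14.8 and -11.3 points. In the middle region, chr7:150481726-150482098 with 20 CpGs and 193 to 311 calls, the controls stood at 79.6% and 83.0% and the AOM/DSS samples at 68.5% and 57.5%, the smallest unadjusted p of all members in this comparison (edgeR unadjusted p = 0.00133, adjusted p = 0.592).

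Grb10 differed in the other direction, with 22.8% ± 7.96 as the control mean and 34.9% ± 0.265 as that of AOM/DSS (SD, n = 2 each). The 12.1 points between them barely exceeded the 11.3 points between the control replicates, and edgeR gave an unadjusted p of 0.0399 and an adjusted p of 0.777. Without control replicate 1 the difference was 6.42 points. Mest was lower in AOM/DSS by 7.47 points, without overlap (44.3% ± 1.87 against 36.9% ± 3.42, SD, n = 2; edgeR unadjusted p = 0.100, adjusted p = 0.826).

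The remaining windows with separate groups, Plagl1 and Impact, were higher in AOM/DSS by 2.82 and 4.18 points (edgeR adjusted p = 0.955 and 0.918), Impact by 2.39 points without control replicate 1. Peg3, Peg10, Snrpn, Igf2r and Nnat overlapped between the groups, with differences from -1.14 to 6.22 points. Among single regions, the next smallest unadjusted p values after Kcnq1ot1 belonged to Nnat and Mest. The Nnat region chr2:157385900-157386382 had 44.3% ± 10.3 in the controls against 26.9% ± 4.196 after AOM/DSS, and the Mest region chr6:30687888-30688116 at 47.8% ± 12.9 and 29.1% ± 15.4 with overlapping replicates (SD, n = 2; edgeR adjusted p = 0.711 and 0.714). Without control replicate 0 the Nnat difference was -10.1 points, and without AOM/DSS replicate 0 the Mest difference was -7.81 points.

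Over the 10 windows the mean difference was 1.17 points, 7 windows higher and 3 lower, and an exact permutation test gave the smallest two-sided p that 2 samples against 2 allow, 0.33. All tested regions together differed by -0.899 points, and the 36699 other regions averaging 30 to 70% by -2.11 points. The sign of the window mean rested on Grb10, without which it was -0.042 points, and without Kcnq1ot1 it was 2.75 points.

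**Figure D4:**
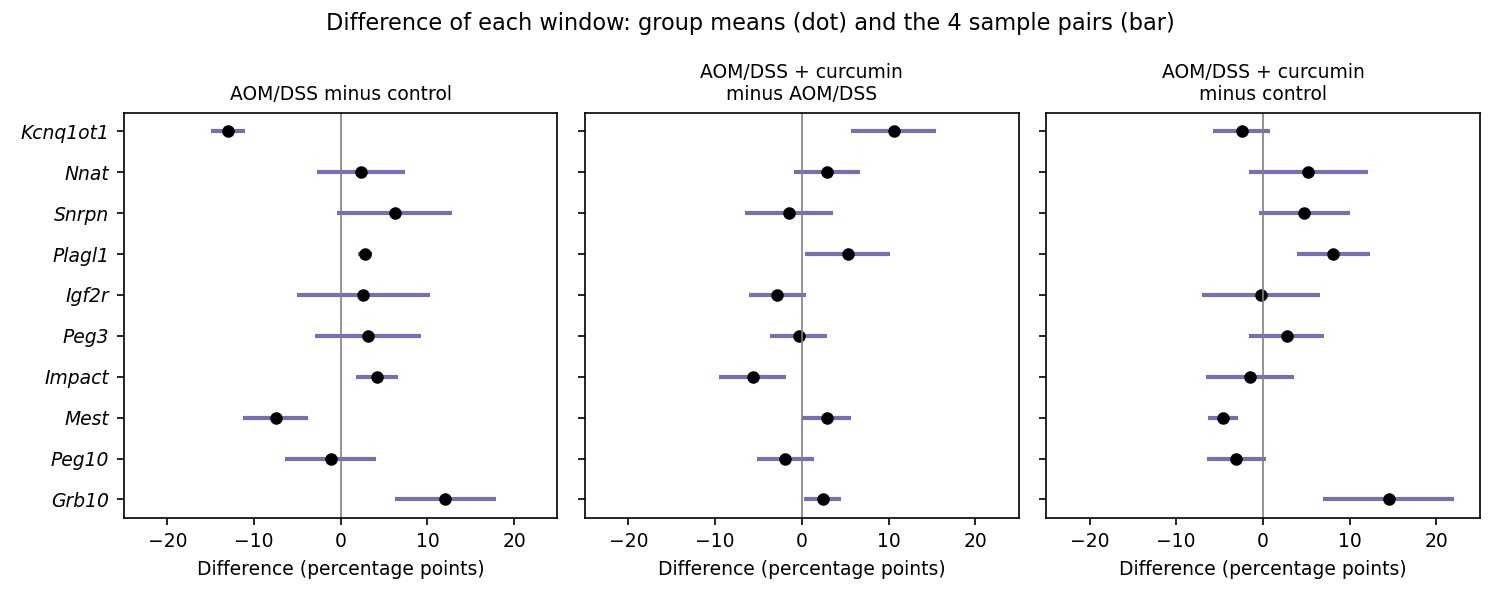
Difference in methylation level in percentage points (x axis) for each window (y axis) in the 3 comparisons; dots are differences of group means and bars span the 4 pairs of samples. At Kcnq1ot1 all 4 pairs lie below 0 for AOM/DSS minus control and above 0 for curcumin minus AOM/DSS, which share the AOM/DSS samples.

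The second comparison set the curcumin samples against AOM/DSS alone, to see whether these marks differed once curcumin was added. It uses the same 2 AOM/DSS samples as the first, so values that are low in these samples appear in both comparisons with opposite sign. No member passed (background 0.00%, smallest adjusted p among members 0.627 in edgeR), and 4 of 46 had an unadjusted p under 0.05, or 8.70% against 5.25% of all tested regions; the same 4 also differed by at least 10 points, against 2.00%. Groups did not overlap at 8 members that were higher and 6 that were lower with curcumin, against 18.9% and 16.0% of all tested regions.

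Kcnq1ot1 again had the smallest p. Its window averaged 78.3% ± 4.40 with curcumin (SD, n = 2), which is 10.6 points more than in AOM/DSS (edgeR unadjusted p = 0.0127, adjusted p = 0.928). Without AOM/DSS replicate 1 the difference was 8.83 points (edgeR unadjusted p = 0.0770) and without curcumin replicate 1 it was 7.50 points (edgeR unadjusted p = 0.165). The middle Kcnq1ot1 region, at 85.7% and 82.4% with curcumin, was 21.0 points above AOM/DSS (edgeR unadjusted p = 0.000275, adjusted p = 0.627); of its neighbours, the lowest region stood at 66.4% in AOM/DSS and 72.6% with curcumin, and the highest at 74.3% and 77.7%.

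Next by unadjusted p came a Plagl1 and a Grb10 region. The Plagl1 region chr10:12810994-12811406 stood at 50.4% ± 7.97 with curcumin and 32.8% ± 5.79 without (SD, n = 2; edgeR adjusted p = 0.928). The Grb10 region chr11:11926084-11926286 stood at 42.5% ± 17.6 and 26.9% ± 7.56, with overlapping samples (SD, n = 2; edgeR adjusted p = 0.928), and its 15.5-point difference was 3.06 points without curcumin replicate 0. Of the windows, Grb10, Plagl1 and Kcnq1ot1 were higher and Impact was lower with curcumin without overlap. Grb10 differed by 2.43 points, though its other region, chr11:11925689-11925946, stood at 31.4% with curcumin and 50.7% without, the opposite direction to the first (edgeR unadjusted p = 0.0261, adjusted p = 0.928; named after its values were seen), or 9.39 points lower without AOM/DSS replicate 1. Plagl1 differed by 5.31 points and Impact by -5.66 points. Without curcumin replicate 0 these differences were 0.494 points at Grb10, 1.17 at Plagl1 and -2.37 at Impact. The mean over the 10 windows was 1.19 points higher, with 5 windows higher and 5 lower (exact two-sided permutation p = 0.33, the smallest possible), and all tested regions differed by 0.482 points.

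The third comparison set the curcumin samples against the untreated controls. No member passed here either (background 0.00%, smallest adjusted p among members 1 in edgeR). At an unadjusted p under 0.05 there were 8 members, or 17.4% against 4.17% of all tested regions, and 7 also differed by at least 10 points, against 1.46%. The groups were apart at 9 members that were higher and 6 that were lower, against 14.3% and 17.7% of all tested regions. Grb10 had the largest window difference, 37.3% ± 2.73 against 22.8% ± 7.96 (SD, n = 2), or 14.5 points, with an unadjusted edgeR p of 0.0168 and an adjusted p of 1. Without control replicate 1 it was 8.85 points. At its region chr11:11926084-11926286 the controls had 15.7% and 10.4%, the AOM/DSS samples 32.3% and 21.6%, and the curcumin samples 54.9% and 30%, so that each control lay below each treated sample; 67 to 254 calls stood behind these values (edgeR unadjusted p = 0.000112, adjusted p = 1). The 29.4 points between curcumin and control there were 16.9 points without curcumin replicate 0.

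Kcnq1ot1 with curcumin overlapped the control range, with a difference of -2.42 points (edgeR unadjusted p = 0.509, adjusted p = 1). Plagl1 was higher with curcumin by 8.13 points and Mest lower by 4.62 points, each without overlap of the samples (edgeR adjusted p = 1 for both). Without curcumin replicate 0 the difference was 3.98 points at Plagl1, and at Kcnq1ot1 it was 0.686 points, the opposite sign. The Peg10 region chr6:4699364-4699482 stood at 46.9% ± 14.2 with curcumin and 24.0% ± 4.48 in control (SD, n = 2; edgeR adjusted p = 1). Another Peg10 region, chr6:4697398-4697849, had the opposite direction, with 17.2% ± 2.24 against 30.3% ± 12.2 (SD, n = 2; edgeR adjusted p = 1). The first was 12.8 points higher without curcumin replicate 1, and the second differed by -4.49 points without control replicate 1. Averaged over the 10 windows, the curcumin samples were 2.35 points above control (exact two-sided permutation p = 0.33), against -0.417 points over all tested regions.

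How far replicates differed at these regions sets how small a change could be seen. Members averaging 10 to 90% had a median gap between the replicates of 8.01 points in control, 7.18 in AOM/DSS and 8.002 with curcumin. Over all 93456 tested regions of such levels it was 5.64, 5.34 and 5.24 points. Among regions of at least 12 CpGs the medians were 8.37, 8.19 and 8.97 points for 33 members and 4.46, 4.07 and 3.98 points for 10561 other regions. Coverage of those members was lower, at a median of 9.73 calls per CpG in control against 12.9. The squared gap was also divided by the variance that counting independent calls would give. Its medians were then 4.06, 2.96 and 5.07 for those members and 1.25, 1.12 and 1.01 for the other regions, in the same order of groups. The means of this ratio were 7.01, 4.91 and 8.30 for those members and 3.43, 2.97 and 2.44 for the other regions. In both sets the squared gap thus exceeded that variance on average. Over the 46 members the SD over the 6 samples had a Spearman rho of -0.627 and a Pearson r of -0.589 with calls per CpG, given as a description, since neighbouring regions share reads and libraries. The part that depth plays in the differences above was not tested.

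**Figure D5:**
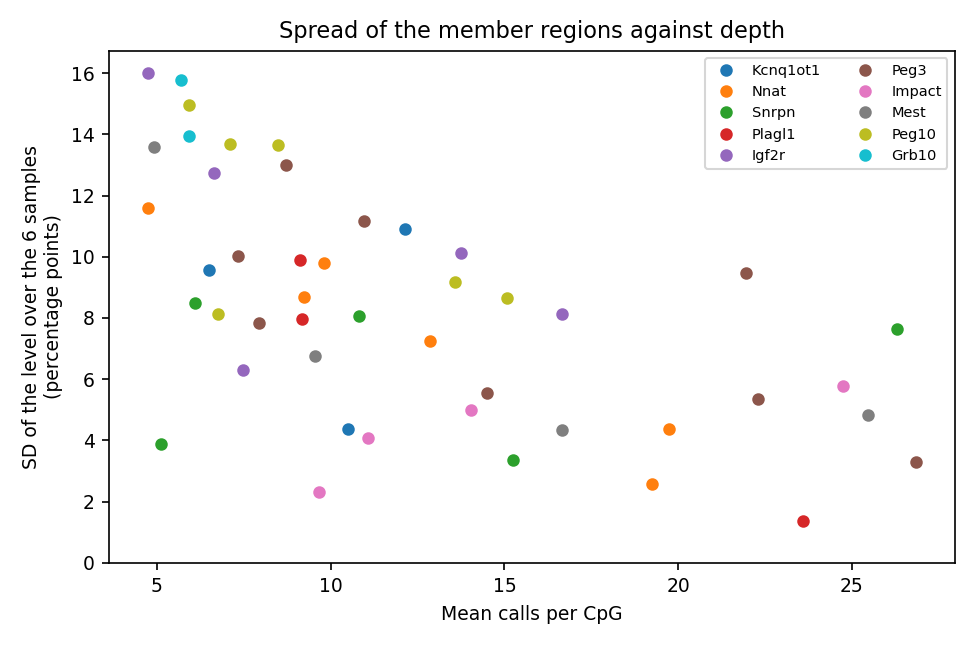
SD of the methylation level over the 6 samples in percentage points (y axis) against the mean calls per CpG (x axis) for the 46 tested member regions, coloured by window. The regions with the widest spread, at Igf2r, Grb10 and Peg10, have few calls per CpG.

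Other imprinted loci, placed from general knowledge of their positions with no annotation of this build, were read the same way. Zrsr1, also maternally methylated, had 35.6% and 36.3% in control, 35.02% and 35.6% in AOM/DSS, and 37.9% and 36.8% with curcumin, an SD of 1.03 points over the 6 samples at 14.1 to 23.1 calls per CpG. The 10 members had window SDs from 2.77 (Peg10) to 7.89 points (Grb10). The paternally methylated H19 window averaged 40.6% with an SD of 6.17 points at 13.1 to 17.7 calls per CpG. Its control replicates were the extremes at 49.6% and 30.7%. The window of Gnas exon 1A, another maternally methylated site, averaged 24.5%, with an SD of 1.60 points at 7.89 to 9.41 calls per CpG. That window pools 2 regions averaging 30 to 70% with 5 under 30%, with region means from 1.39% to 39.0%. The one placed between Dlk1 and Meg3 held no region of intermediate level and averaged 90.3%; it may be misplaced, so this value says nothing certain of that control region.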

How the data were processed

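DNA was captured with the Agilent SureSelectXT Mouse Methyl-Seq kit and sequenced after bisulfite treatment, per the labels' protocol. The deposited values are counts of methylation calls and methylated calls per region. Bismark 0.15.0, ChIPseeker 1.10.3, R 3.4.0 and build mm9 are named in the submitters' processing notes. How regions were drawn, duplicate removal, and whether starts count from 0 or 1 are items not given in the sources used here. No value rests on fewer than 20 calls.

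The 179922 regions with 10 or more calls in every sample were fitted with edgeR 4.0.16 (R 4.3.3), on the methylated and unmethylated calls with sample and group coefficients, and p-values adjusted by Benjamini-Hochberg over all regions. A second fit replaced the members by 10 window sums. The fit was also run on simulated data. The planted changes there were mostly larger than the differences reported here, so that run does not say how small a change the fit could call. Summaries used Python 3.11.15, numpy 2.4.6, pandas 2.3.3 and scipy 1.17.1. Alternatives were other call minimums and differences, limma 3.58.1, Fisher's exact test, fewer samples, a replicate block and other ways to average a window. Text names all 10 windows, the highest and lowest region of each, and the 3 regions with the smallest p per comparison. Members and lists were chosen with earlier results of these data known.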

Additional observations from a re-analysis of the deposited data

How the results depend on the processing

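The count of called members stayed at 0 in the 3 comparisons in edgeR with at least 50 calls, no minimum difference, only the 4 samples compared, a replicate block, and without each sample in turn, and in limma. It could not differ with at least 20 calls, which every value has, with a minimum of 20 points or with only regions wholly inside a window. On simulated data limma called none of the changed regions, so its count of 0 bears no weight. The window counts stayed at 0 likewise under each setting run for them. With the calls of each group added up, which leaves out the spread between samples, Fisher's exact test called 7, 4 and 7 members in the 3 comparisons in the order given, against 2.00%, 0.998% and 0.355% of all tested regions and 4.76%, 2.21% and 0.918% of those averaging 30 to 70%. Replicate differences correlated across groups with r from 0.00754 to 0.0548, and whether replicate numbers mark a shared batch was not tested. With the replicate block the count of called members was 0 in each comparison. Over all tested regions the same rule called 41 with the block and 7 without it in AOM/DSS against control.

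The mean difference over the 10 windows was less stable. For AOM/DSS against control (1.17 points) it ran from 0.465 (without AOM/DSS replicate 1) to 1.87 (without AOM/DSS replicate 0), was 0.614 with at least 50 calls and 0.798 with region levels averaged, and ran from -0.042 (without Grb10) to 2.75 (without Kcnq1ot1). For curcumin against AOM/DSS (1.19 points) it ran from 0.485 (without AOM/DSS replicate 0) to 1.89 (without AOM/DSS replicate 1), was 0.140 without Kcnq1ot1, 0.299 with region levels averaged, and -0.969 with only members averaging 30 to 70%, a setting that drops Kcnq1ot1. For curcumin against control (2.35 points) it ran from 2.01 to 2.70 without 1 sample and from 1.01 (without Grb10) to 3.13 (without Mest), and was 1.097 with region levels averaged, 1.78 with at least 50 calls and 0.110 with members averaging 30 to 70%; beyond the members each setting drops, the cause was not tested. Of the single-window differences, 26 of 30 kept their sign with region levels averaged, and 104 of 120 without 1 sample. The 17 stretches of intermediate level described next became 2 at 35 to 65% and 106 with at least 3 regions.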

Other observations

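Long stretches of intermediate methylation were also counted outside the control regions. Runs of at least 4 neighbouring regions, no more than 1000 bases apart and each at 30 to 70% in all 6 samples, numbered 17 over the genome. None (0 of 17) lay in the 10 windows. At Grb10, Plagl1, Kcnq1ot1, Snrpn, Impact and Nnat none could, since each had fewer than 4 tested regions averaging 30 to 70%. Nor could any at Mest, where more than 1000 bases (30685928 to 30686965) part the first region from the rest. At Peg10, regions averaging 24.3% and 29.9% left fewer than 4 in a row, and at Igf2r a region averaging 29.7% did. The absence of such runs was thus fixed in advance at every window but Peg3. With 3 regions as the minimum, 106 runs were found, 3 of them at members: chr18:13130575-13132064 at Impact and chr7:6680019-6681457 and chr7:6683623-6685151 at Peg3. The first 5 of the 17 by number of regions and then of CpGs were on chromosome 18 from 37925515 to 37928295 (50.5% over the samples), on chromosome 18 from 37179679 to 37181819 (48.3%), on chromosome 12 from 18393631 to 18395360 (54.5%), on chromosome X from 166434887 to 166436554 (46.0%) and on chromosome 18 from 37111900 to 37113897 (49.1%). Which genes lie there was not worked out, since no annotation of this build was used here.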
